A study of Mus musculus with 454 samples.

Results

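The genes described here are Fos, Fosb, Fosl2, Jun, Junb and Jund, 6 genes of the 43346 in the count table, chosen by name as members of the Fos and Jun families. All 6 passed the filter on low counts in every region. They were measured by poly(A) RNA-seq in 454 libraries of mouse brain from the regions labelled AMY, Nac, PFC and VTA, which hold 115, 112, 112 and 115 libraries. The series title names the medial amygdala, and the other labels are the usual abbreviations of the ventral tegmental area, the nucleus accumbens and the prefrontal cortex. Mice of both sexes were socially isolated (SI) or group-housed (G), and received cocaine at 7.5 mg/kg or saline at 0 mg/kg under a chronic (CHR) or an acute (A) schedule. The 4 treatments are called chronic cocaine, chronic saline, acute cocaine and acute saline. Crossed with sex and housing they make 16 groups per region, of 5 to 8 libraries each. The number of injections and the interval between the last injection and dissection were not given in the sources used here. The labels also do not say that libraries with the same title number come from the same mouse.

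Fos and Jun proteins pair through leucine zippers to form AP-1, a family of transcription factors that bind a short palindromic DNA site. Fos, Fosb and Junb are immediate early genes: their transcripts rise within minutes of neuronal activity without new protein synthesis and then decay, whereas Jund is expressed steadily in most cells. In the striatum, repeated exposure to drugs of abuse is known for the slow build-up of ΔFosB, a truncated and stable product of alternative splicing of Fosb, which gene-level counts cannot separate from full-length Fosb.

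On GRCm38, Fos lies at chr12:85473890-85477273, Fosb at chr7:19302696-19310051, Fosl2 at chr5:32135801-32157842, Jun at chr4:95049034-95052222, Junb at chr8:84974484-84978718 and Jund at chr8:70698949-70700616. Jun and Jund overlap antisense genes (Junos and Gm11175), and Junb overlaps the protein-coding gene Prdx2 on the other strand. CREB and serum response factor drive the rapid transcription of Fos, and Jun can be driven by AP-1 dimers at its own promoter. The 250 bases before the RefSeq start are shown for the 4 members whose RefSeq start lies within 30 bases of the annotated gene start, because these genes were called lower in most of the schedule comparisons. The sequences are from RefSeq on GRCm38.p6, in the direction of transcription. Capitals mark the CREB half-site TGACG, and in Jun the AP-1 variant TGACATCA.
Fos (chr12:85473640-85473889, plus strand): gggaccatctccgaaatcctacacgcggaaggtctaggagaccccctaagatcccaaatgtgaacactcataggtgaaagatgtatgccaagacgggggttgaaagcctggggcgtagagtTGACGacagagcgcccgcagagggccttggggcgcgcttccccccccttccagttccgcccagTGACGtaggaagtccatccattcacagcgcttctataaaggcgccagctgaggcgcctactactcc
Fosb (chr7:19310046-19310295, minus strand): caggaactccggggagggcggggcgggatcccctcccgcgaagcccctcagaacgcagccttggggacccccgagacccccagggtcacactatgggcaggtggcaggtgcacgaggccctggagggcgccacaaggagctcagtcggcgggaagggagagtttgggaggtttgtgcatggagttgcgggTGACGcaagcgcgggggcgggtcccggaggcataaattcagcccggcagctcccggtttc
Jun (chr4:95052223-95052472, minus strand): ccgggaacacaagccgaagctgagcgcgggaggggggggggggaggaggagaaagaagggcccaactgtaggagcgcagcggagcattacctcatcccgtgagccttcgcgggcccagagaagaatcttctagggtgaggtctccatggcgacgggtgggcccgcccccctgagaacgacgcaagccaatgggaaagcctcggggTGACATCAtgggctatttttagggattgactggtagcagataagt
Junb (chr8:84978749-84978998, minus strand): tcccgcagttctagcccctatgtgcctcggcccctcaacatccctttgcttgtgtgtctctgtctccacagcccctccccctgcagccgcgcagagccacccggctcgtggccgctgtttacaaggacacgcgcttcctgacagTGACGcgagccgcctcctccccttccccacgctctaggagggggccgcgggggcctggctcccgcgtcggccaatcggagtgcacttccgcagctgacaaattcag

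Searched on both strands, TGACG was found at -129 to -125 and -66 to -62 in Fos, at -60 to -56 in Fosb and at -106 to -102 in Junb, counted back from the base before the start. TGACATCA was found at -45 to -38 in Jun. TGACG occurs in 17.8% and TGACATCA in 2.93% of the 32851 RefSeq promoter windows of the same length. The full CREB site TGACGTCA, which contains TGACG and is present in 1.55% of these windows, and the AP-1 site TGANTCA, present in 6.75%, were found in none of the 6 members' windows. A match describes letters only. Fosl2 and Jund, whose RefSeq starts lie farther from the annotated gene start, held none of the searched motifs in their windows.

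Libraries held 11205511 to 52335542 counts, with a median of 21714064. Levels below are in CPM, counts per 1000000 counts of the library, with library totals adjusted by the TMM factor within a region. Markers followed the labels: striatal neuron genes were highest in Nac, with a mean log2 CPM of 8.70 against at most 4.93 elsewhere, dopamine neuron genes in VTA at 7.89 against at most 2.04, and cortical neuron genes in PFC at 7.0 against at most 4.0. Medial amygdala and hypothalamus genes were highest in AMY, at 3.92 against at most 2.23. For these log2 CPM values and the correlations below, 1 was added to each CPM first. In 10 libraries (3 in Nac, 1 in AMY, 6 in PFC and 0 in VTA) a principal component was extreme or transcripts of the opposite sex reached 5%. Title numbers fall into a 500, a 1000, a 1100 and a 1200 series, which the labels do not explain. Acute libraries of both doses are in the 1000 and 1100 series, chronic cocaine libraries in 1000 and 1200, and chronic saline libraries in 500 and 1200. Chronic and acute saline therefore share no number series, and their schedule and series cannot be told apart. Nothing says that libraries come from separate mice, so p-values measure the spread between libraries.

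The members differed in level and in spread, as the plot of values by library shows. Per kilobase of exon, Jund was the most abundant member in every region, averaging 40.6 ± 6.76 CPM per kb in AMY, 43.0 ± 6.83 in PFC, 39.2 ± 15.4 in Nac and 30.7 ± 5.72 in VTA (SD over all libraries of the region). Its SD in Nac includes 1 isolated female given chronic saline that read 306.4 CPM. Fosb had the lowest mean per kilobase in every region, at 1.92 ± 0.812 CPM per kb in AMY, 4.67 ± 2.72 in PFC, 2.86 ± 1.07 in Nac and 0.396 ± 0.337 in VTA. Between these ends the order was Jun, Junb, Fos and Fosl2 in AMY, Junb, Jun, Fosl2 and Fos in Nac, Junb, Jun, Fos and Fosl2 in PFC, and Jun, Fos, Junb and Fosl2 in VTA. Neighbours whose means differed by less than the SD of either were Jun and Junb in AMY (12.9 ± 3.08 and 11.6 ± 3.54 CPM per kb), Fosl2 and Fos in Nac (4.12 ± 2.20 and 4.10 ± 2.68), and in PFC both Jun and Fos (15.6 ± 2.43 and 13.4 ± 8.05) and Fosl2 and Fosb (5.48 ± 2.20 and 4.67 ± 2.72). By the length of the principal transcript instead, Junb lay above Jun in AMY (14.7 and 12.9 CPM per kb) and Fosb above Fos in Nac (4.72 and 4.58).

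Across regions the mean level of every member was highest in PFC, but for Jund the PFC and AMY means differed by less than the SD of either. The mean CPM of Jund was 71.7 ± 11.4 in PFC, 67.7 ± 11.3 in AMY, 65.4 ± 25.6 in Nac and 51.2 ± 9.54 in VTA (± SD). The mean CPM of Fos was 31.4 in PFC, 17.9 in AMY, 12.4 in VTA and 9.65 in Nac. The mean CPM of Fosb was 29.2 in PFC, 17.9 in Nac, 12 in AMY and 2.47 in VTA. That of Fosl2, which encodes the Fos-related antigen Fra-2, was 53.0 in PFC, 39.9 in Nac, 30.1 in AMY and 7.66 in VTA. That of Junb was 57.8 in PFC, 40.7 in Nac, 26.7 in AMY and 7.44 in VTA. That of Jun, which in neurons also responds to stress through JNK kinases, was 49.7 in PFC, 41.3 in AMY, 36.2 in VTA and 26.9 in Nac. The coefficient of variation over libraries ran up to 85.1% for Fosb in VTA and down to 12.2% for Jun in VTA. No test was made between regions. In bulk tissue, fewer cells of a type and less RNA per cell cannot be told apart.

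**Figure D1:**
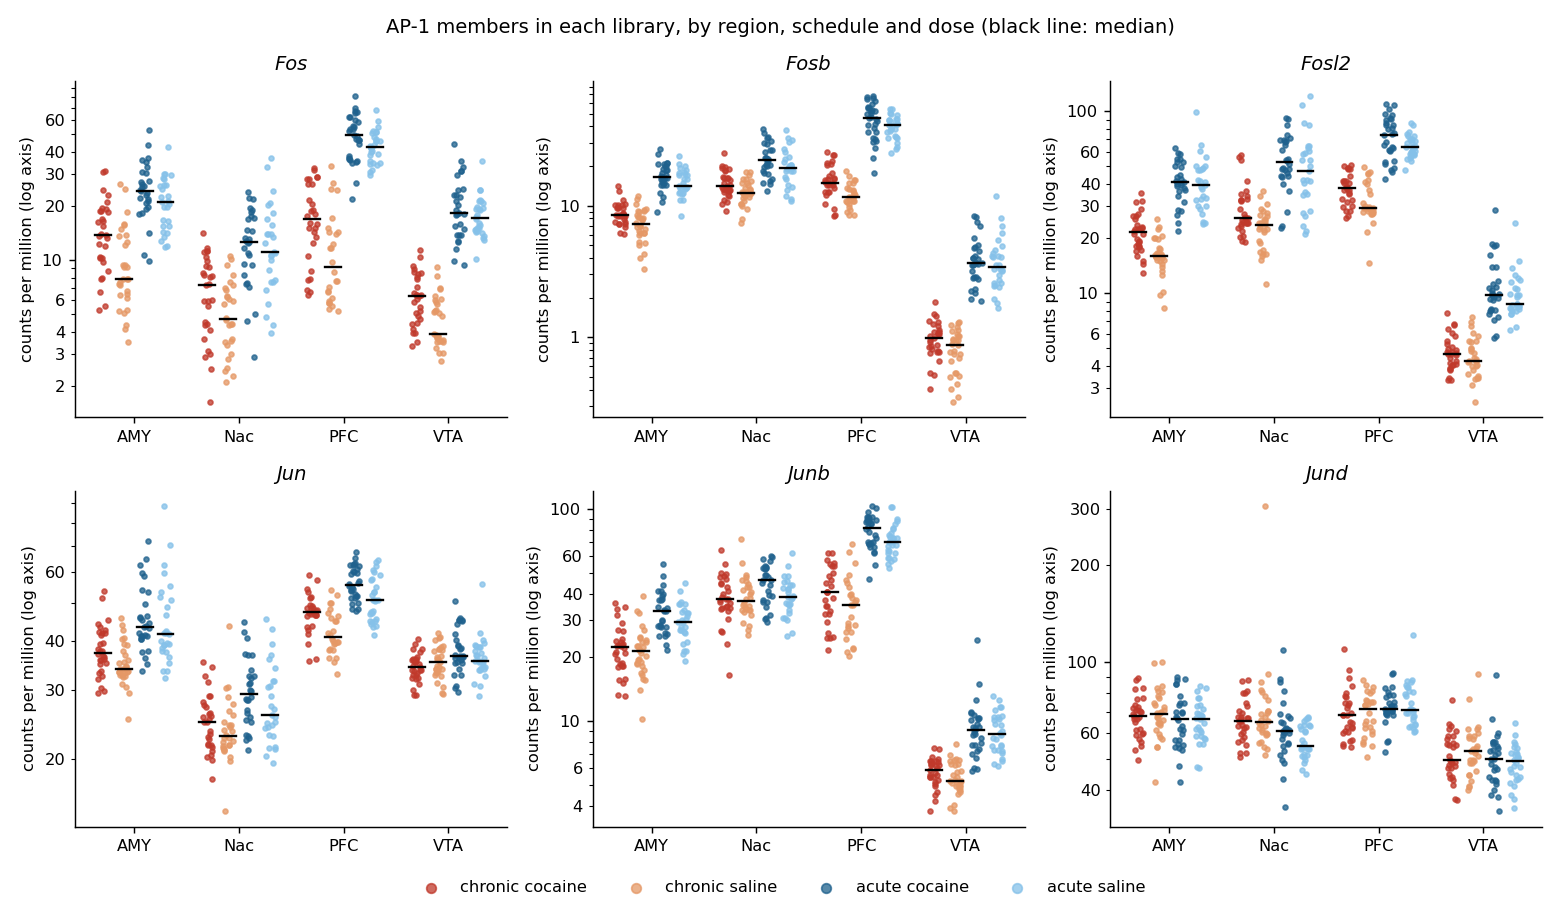
Each point is 1 library; the vertical axis is CPM on a log axis, each panel is 1 member, and within each region the treatments are chronic cocaine, chronic saline, acute cocaine and acute saline, with the median as a black line. Fosb in VTA shows no overlap between chronic and acute libraries of the same dose. Jund shows overlapping levels in every treatment, with 1 chronic saline library of Nac at 306.4 CPM.

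The widest differences in the family lay between the chronic and the acute schedule, with cocaine and with saline. Fos, Fosb and Fosl2 were lower in chronic libraries of all 4 regions at both doses, but with number series as a further term several of these saline calls were lost, as the values with that term show. Junb was lower in AMY, PFC and VTA, and Jun fell by a smaller amount, except in VTA with saline, where it was not called. Jund was called lower in none. A gene was called where its p from the quasi-likelihood test of edgeR, adjusted by the Benjamini-Hochberg method over all genes tested in the region, was below 0.05. Log2 changes are given ± SE.

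In VTA, Fos ranged from 3.35 to 11.3 CPM with a median of 6.35 in chronic cocaine libraries, against 9.41 to 44.0 CPM with a median of 18.4 in acute cocaine libraries. With saline it ranged from 2.74 to 9.17 CPM with a median of 3.88 in chronic libraries, against 10.2 to 35.5 CPM with a median of 17.1 in acute libraries. Every chronic saline library lay below every acute saline library, and with cocaine 27 of 29 chronic libraries lay below the lowest acute one. The log2 change was -1.67 ± 0.11 with cocaine (edgeR adjusted p = 9.24e-24) and -1.89 ± 0.12 with saline (adjusted p = 3.7e-26).

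Fosb, whose truncated product builds up with repeated stimulation, separated completely in VTA within each dose. The share of all genes that separate in this way was not counted, for this or the other separations given. Of all genes tested in VTA, 38.2% with cocaine and 43.6% with saline were called between schedules in either direction. It ranged from 0.406 to 1.87 CPM with a median of 0.978 in chronic cocaine libraries, against 1.89 to 8.34 CPM with a median of 3.67 in acute cocaine libraries. With saline it ranged from 0.323 to 1.3 CPM with a median of 0.879 in chronic libraries, against 1.65 to 11.8 CPM with a median of 3.44 in acute libraries. Across doses, the ranges of chronic cocaine and acute saline libraries overlapped. These levels rest on few reads, with a median count of 22 in chronic cocaine, 20 in chronic saline, 83 in acute cocaine and 69.5 in acute saline libraries. The log2 change of Fosb in VTA was -2.02 ± 0.15 with cocaine and -2.24 ± 0.15 with saline.

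In PFC, Fos ranged from 6.42 to 32.6 CPM with a median of 16.8 in chronic cocaine libraries, against 21.9 to 81.1 CPM with a median of 49.3 in acute cocaine libraries. With saline it ranged from 5.20 to 33.3 CPM with a median of 9.16 in chronic libraries, against 29.8 to 68.1 CPM with a median of 42.6 in acute libraries. Of 26 chronic saline libraries, 25 lay below the lowest acute saline library. The log2 change of Fos was -1.46 ± 0.15 with cocaine (edgeR adjusted p = 3.88e-13) and -1.85 ± 0.16 with saline (adjusted p = 1.58e-16). Fosb in PFC ranged from 8.29 to 25.8 CPM in chronic cocaine libraries, against 17.6 to 67.8 CPM in acute cocaine libraries. With saline it ranged from 8.50 to 18.3 CPM in chronic libraries, against 25.3 to 54.1 CPM in acute libraries, with no overlap. Its log2 change was -1.52 ± 0.093 with cocaine and -1.72 ± 0.098 with saline.

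Fosl2 changed by -0.87 ± 0.13 in Nac, -0.94 ± 0.11 in AMY, -0.93 ± 0.079 in PFC and -1.22 ± 0.11 in VTA with cocaine. With saline it changed by -1.09 ± 0.13 in Nac, -1.34 ± 0.11 in AMY, -1.0 ± 0.083 in PFC and -1.13 ± 0.11 in VTA. In saline libraries of AMY it ranged from 8.32 to 25.5 CPM with a median of 16 under the chronic schedule, against 24 to 98.5 CPM with a median of 39.5 under the acute schedule. There 29 of 30 chronic libraries lay below the lowest acute one. In AMY, Fos ranged from 3.52 to 26.5 CPM with a median of 7.87 in chronic saline libraries, against 11.9 to 42.5 CPM with a median of 21.1 in acute saline libraries. In Nac it ranged from 2.11 to 10.6 CPM with a median of 4.70 in chronic saline libraries, against 3.94 to 36.7 CPM with a median of 11.1 in acute saline libraries. The groups overlapped in both regions. In AMY, Fos changed by -0.73 ± 0.16 with cocaine and -1.09 ± 0.16 with saline, and in Nac by -0.88 ± 0.19 and -1.29 ± 0.20. Fosb changed by -0.94 ± 0.087 and -1.06 ± 0.088 in AMY, and by -0.62 ± 0.100 and -0.63 ± 0.10 in Nac, with cocaine and with saline. These are smaller in size than in PFC and VTA, a difference between regions that was not tested.

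The 3 Jun genes differed in their values. Junb in PFC ranged from 21.6 to 62.4 CPM with a median of 40.6 in chronic cocaine libraries, against 46.9 to 104 CPM with a median of 81.4 in acute cocaine libraries. It changed in PFC by -0.95 ± 0.097 with cocaine and -0.99 ± 0.10 with saline, in AMY by -0.55 ± 0.093 and -0.45 ± 0.094, and in VTA by -0.72 ± 0.082 and -0.69 ± 0.083. In Nac, Junb was not called, at -0.22 ± 0.089 with cocaine (edgeR adjusted p = 0.0597; with limma it was called, at -0.23 ± 0.088, adjusted p = 0.0458). With saline its 95% interval in Nac was -0.18 to 0.18, and it ranged from 25.6 to 72.2 CPM in chronic libraries and from 25.3 to 62.4 CPM in acute libraries.

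Jun changed by -0.26 ± 0.074 in Nac, -0.29 ± 0.072 in AMY, -0.25 ± 0.044 in PFC and -0.16 ± 0.039 in VTA with cocaine, all called. With saline it changed by -0.38 ± 0.073 in AMY, -0.21 ± 0.076 in Nac and -0.28 ± 0.046 in PFC, and was not called in VTA at -0.044 ± 0.040 (edgeR adjusted p = 0.379). The groups overlapped: in PFC, chronic saline libraries ranged from 32.9 to 53.9 CPM, against 41.4 to 64.3 CPM in acute saline libraries. Jund was called higher with saline in Nac, at 0.40 ± 0.094 (adjusted p = 0.00106), and in VTA, at 0.16 ± 0.067 (adjusted p = 0.046), a VTA call that limma did not make (adjusted p = 0.0603). In Nac it ranged from 51.2 to 306 CPM with a median of 65 in chronic saline libraries, against 44.7 to 67.4 CPM with a median of 54.8 in acute saline libraries. Without the 3 Nac libraries that stand apart, its change was 0.21 ± 0.066 (adjusted p = 0.0139). With cocaine Jund was called in no region, at 0.070 in Nac, 0.042 in AMY, -0.051 in PFC and 0.034 in VTA.

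Counted over the family, chronic cocaine libraries had 5, 4, 5 and 5 of 6 members called lower than acute cocaine libraries in AMY, Nac, PFC and VTA. The background was high: 18.4%, 24.3%, 18.5% and 38.2% of all genes tested there were called in either direction. With saline 5, 4, 5 and 4 members were called lower and 0, 1, 0 and 1 higher, beside 20.4%, 20.9%, 23.3% and 43.6% of all genes. The median log2 change of all genes lay between -0.006 and 0.015 in these comparisons. The median over the 6 members was -0.64, -0.44, -0.94 and -0.97 with cocaine and -0.76, -0.42, -0.99 and -0.91 with saline, in the order AMY, Nac, PFC and VTA.

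**Figure D2:**
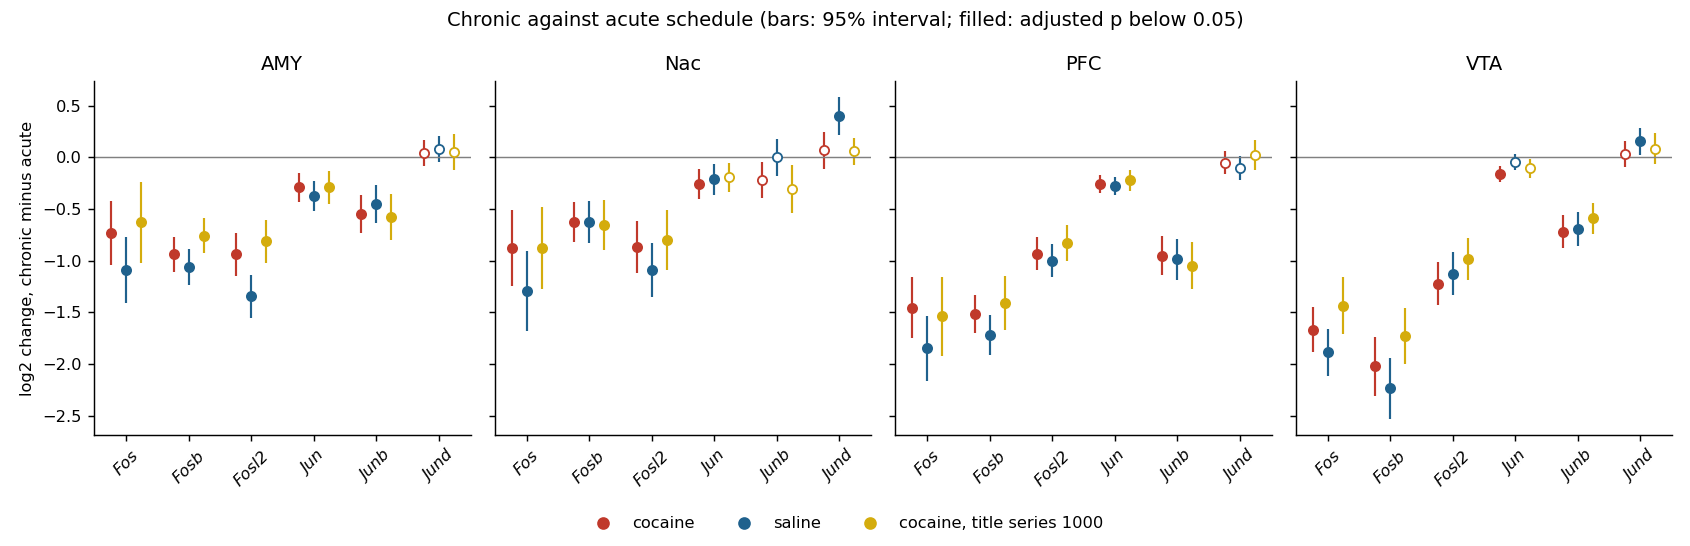
Log2 change of each member, chronic minus acute, in the 4 regions, with 95% intervals; filled points have an adjusted p below 0.05, and the colours are cocaine libraries, saline libraries and cocaine libraries of the 1000 number series. Fos and Fosb in PFC and VTA lie between -2.24 and -1.41 in all 3.

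The cocaine libraries of the 1000 number series hold both schedules, so the comparison was repeated there. It used 20 to 22 chronic and 14 to 16 acute libraries per region. The series did not change, but in every region each acute title number in it lay below each chronic one. Schedule and order of title number still go together there and cannot be told apart. Members called lower numbered 5, 3, 5 and 4 in AMY, Nac, PFC and VTA, beside 10.1%, 4.78%, 12.6% and 25.9% of all genes. Fos changed by -0.87 ± 0.20 in Nac, -0.63 ± 0.20 in AMY, -1.54 ± 0.20 in PFC and -1.44 ± 0.14 in VTA. In VTA every one of the 21 chronic libraries, from 3.35 to 11.3 CPM, lay below every one of the 16 acute ones, from 11.5 to 32.9 CPM. Fosb separated there as well, from 0.520 to 1.87 CPM in chronic libraries, against 1.97 to 5.71 CPM in acute libraries. Jun in Nac and VTA and Junb in Nac were not called within this series, at -0.19 ± 0.074, -0.11 ± 0.046 and -0.31 ± 0.12. Number series was also added as a further term in the fit of all libraries. Chronic and acute saline share no series, so in that fit only chronic cocaine libraries, found in a series of each, link them. The saline values with this term therefore assume that series differ alike in every treatment. They do not separate schedule from series within saline libraries. With this term, the saline comparison called 2 members in AMY, 3 in PFC, 1 in Nac and 4 in VTA. Fos then changed by -1.02 ± 0.32 in AMY (edgeR adjusted p = 0.0847), -1.71 ± 0.36 in Nac, -2.02 ± 0.32 in PFC and -1.56 ± 0.23 in VTA. Fosb changed by -0.58 ± 0.17 in AMY and -0.55 ± 0.21 in Nac, neither called (edgeR adjusted p = 0.0641 and 0.682). It was called in PFC, at -1.35 ± 0.19, and in VTA, at -1.87 ± 0.33. Fosl2 was not called in Nac, at -0.81 ± 0.26, or in PFC, at -0.56 ± 0.15 (edgeR adjusted p = 0.489 and 0.07), and was called in AMY, at -0.94 ± 0.21, and in VTA, at -0.85 ± 0.22. Jun was called in no region and Junb in AMY, PFC and VTA.

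Markers of other cell types moved with the schedule in some regions. The counts below stand beside the shares of all genes given above, 18.4% to 38.2% with cocaine and 20.4% to 43.6% with saline. In VTA, chronic libraries had 6 of 6 dopamine neuron markers called higher with cocaine and 6 with saline, at a median log2 change of 0.65 and 0.74. All 7 microglia markers were higher at both doses, at 0.37 and 0.44. Choroid plexus markers were lower there, 10 of 10 with cocaine and 4 with saline. With the dopamine neuron markers as a further term, added after the data were seen, Fos in VTA changed by -1.49 ± 0.12 with cocaine and -1.72 ± 0.12 with saline. Fosb changed by -2.0 ± 0.16 and -2.22 ± 0.17. In AMY, 5 of 8 endothelial and mural markers were called higher at each dose, and 5 of 10 choroid plexus markers lower with saline. Striatal neuron markers were called higher in Nac, 3 of 7 with cocaine and 4 with saline, and in PFC, 4 with cocaine and 0 with saline. In PFC, 4 of 7 choroid plexus markers tested were called higher with cocaine, at a median of 0.82, and 1 with saline. Of 7 astrocyte markers, 4 were called higher in AMY with cocaine and 2 with saline. In Nac 3 astrocyte markers were called lower and 1 higher with cocaine, and 4 lower with saline. In VTA 3 were called lower at each dose. Of medial amygdala and hypothalamus markers, 3 of 7 were called lower in AMY at each dose, and 1 higher with cocaine. In VTA 4 of 6 tested were called lower with cocaine and 3 with saline, and 1 higher at each dose. Cortical neuron markers had a median of -0.85 in Nac with saline, with 0 called. In the other pairs of marker list and region, at most 3 markers were called in the same direction at a dose. Endothelial and mural markers in VTA had 3 called higher and 1 lower with cocaine. Apart from the marker terms fitted, their part in the result was not tested.

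Many other rapid genes that neurons induce with activity were also lower. Of 26 such genes, chronic cocaine libraries had 16 called lower in AMY, 10 in Nac and 22 in PFC, and 18 of 25 tested in VTA, with 0 higher. With saline 18, 13, 21 and 16 were called lower and 0 higher. Of all genes, 18.4%, 24.3%, 18.5% and 38.2% were called in either direction with cocaine and 20.4%, 20.9%, 23.3% and 43.6% with saline. The median log2 change of the rapid genes was -0.32, -0.14, -0.71 and -0.33 with cocaine and -0.31, -0.25, -0.60 and -0.36 with saline, in the order AMY, Nac, PFC and VTA. Nr4a3, an orphan nuclear receptor of the NR4A family, changed with saline by -1.38 ± 0.15 in Nac, -1.72 ± 0.16 in AMY, -1.09 ± 0.085 in PFC and -1.44 ± 0.12 in VTA. Egr2, a zinc finger factor of the EGR family, changed with saline by -1.63 ± 0.17 in AMY, -1.01 ± 0.18 in Nac and -2.78 ± 0.17 in PFC. Egr1, from the same family, changed with saline by -1.34 ± 0.099 in PFC and -1.87 ± 0.14 in VTA.

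Of 12 other bZIP partners of AP-1 proteins, 11 were tested. Chronic cocaine libraries had 3, 4, 7 and 3 called lower and 1, 0, 0 and 0 higher in AMY, Nac, PFC and VTA. Of all genes, 18.4%, 24.3%, 18.5% and 38.2% were called there in either direction. The bZIP count in VTA is below that share. Atf3, a stress-induced partner of Jun proteins, changed by -0.86 ± 0.17 in Nac, -0.47 ± 0.13 in AMY, -0.71 ± 0.13 in PFC and -0.40 ± 0.12 in VTA. Maff, a small MAF protein, changed by -0.55 ± 0.12 in Nac, -0.46 ± 0.13 in AMY, -0.67 ± 0.097 in PFC and -0.58 ± 0.098 in VTA. Of 15 kinases and factors upstream of Fos and Jun, 4, 2, 4 and 7 were called lower and 2, 2, 1 and 4 higher with cocaine in AMY, Nac, PFC and VTA. The count in Nac is near the share of all genes. Crem, a CREB relative with an inducible repressor form, changed by -0.19 ± 0.041 in AMY, -0.24 ± 0.066 in Nac and -0.36 ± 0.049 in PFC. Srf, which encodes serum response factor, changed by -0.17 ± 0.038 in AMY and -0.27 ± 0.037 in PFC. Creb1, which encodes CREB, changed by -0.16 ± 0.039 in Nac and -0.18 ± 0.038 in VTA.

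Of 8 genes described in the striatum as targets of FosB products, 1, 2, 0 and 4 were called lower and 0, 1, 0 and 1 higher in chronic cocaine libraries of AMY, Nac, PFC and VTA, beside 18.4%, 24.3%, 18.5% and 38.2% of all genes. The counts in AMY and PFC are below that share. In Nac the called genes were Cartpt, a neuropeptide gene, at -0.62 ± 0.18, Sirt1, a deacetylase gene, at -0.10 ± 0.036, and Ehmt2, the histone methyltransferase gene known as G9a, at 0.084 ± 0.032. Cartpt in VTA changed by -4.84 ± 0.53 with cocaine and -5.06 ± 0.54 with saline. Cell type markers moved there too. Dopamine neuron markers had a median of 0.65 and 0.74, and medial amygdala and hypothalamus markers -0.60 and -0.51, with cocaine and with saline. The part of cell composition in the Cartpt values was not tested. The median of the 8 genes was -0.017 in Nac and 0.0090 in PFC with cocaine.

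The counts of overlapping genes can depend on how reads in the overlap were assigned. Where Junb fell in VTA, Prdx2 was called higher, by 0.20 ± 0.041 with cocaine and 0.20 ± 0.042 with saline. In AMY and PFC, where Junb also fell, Prdx2 was not called, at -0.013 and 0.010 with cocaine. The antisense gene Junos over Jun averaged at most 0.944 CPM in these treatments and was not called. The kit marks strand, but the strand setting of the counting is not given in the sources used here.

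Within a schedule, the design asks how cocaine libraries differed from saline libraries. Under the chronic schedule Fos had a positive log2 change in every region and was called in PFC, where Fosb and Jun were also called higher. In PFC, Fos ranged from 6.42 to 32.6 CPM with a median of 16.8 in chronic cocaine libraries, against 5.20 to 33.3 CPM with a median of 9.16 in chronic saline libraries. Its log2 change was 0.58 ± 0.16 (edgeR adjusted p = 0.0197), and 22 of 28 cocaine libraries lay above the saline median. Fosb ranged from 8.29 to 25.8 CPM with a median of 15.0 in chronic cocaine libraries, against 8.50 to 18.3 CPM with a median of 11.7 in chronic saline libraries. It changed by 0.39 ± 0.098 (edgeR adjusted p = 0.0112), with 24 of 28 above the saline median. Jun ranged from 35.5 to 59.1 CPM with a median of 47.4 in chronic cocaine libraries, against 32.9 to 53.9 CPM with a median of 41.0 in chronic saline libraries. It changed by 0.15 ± 0.046 (edgeR adjusted p = 0.0293), with 25 above the saline median. The ranges overlapped for all 3 genes.

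These 3 members of 6 stand beside 7.12% of all genes called in PFC, against 0.0518% in AMY, 0.151% in Nac and 0.0817% in VTA, where 0 members were called. Of the 26 other rapid genes, 6 were called higher in PFC, and Egr2 changed by 1.01 ± 0.17. In the same comparison 6 of 7 striatal neuron markers were called higher, with a median of 0.55, and 1 of 5 cortical neuron markers lower. Also called higher were 2 of 7 choroid plexus markers tested (median 0.72), 2 of 4 dopamine neuron markers tested (0.235) and 1 of 7 astrocyte markers (0.124). Oligodendrocyte and myelin markers had 0 of 8 called, at a median of 0.336. With the striatal neuron markers as a further term, added after the data were seen, Fosb alone was called, at 0.46 ± 0.098 (edgeR adjusted p = 0.0254), and Fos changed by 0.63 ± 0.16 (adjusted p = 0.0728). With number series as a term 0 members were called, and Fos changed by 0.69, Fosb by 0.13 and Jun by 0.062.

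In the other regions Fos under chronic cocaine gave 0.55 ± 0.16 in AMY (edgeR adjusted p = 0.217), 0.39 ± 0.19 in Nac (adjusted p = 0.255) and 0.44 ± 0.12 in VTA (adjusted p = 0.173). Cocaine libraries lay above the saline median in 26 of 30 in AMY, 19 of 29 in Nac and 27 of 29 in VTA. Fosl2 gave 0.37 ± 0.13 in Nac, 0.41 ± 0.10 in AMY, 0.23 ± 0.083 in PFC and 0.089 ± 0.11 in VTA, none called by edgeR. Over all chronic libraries, Junb and Jund lay between -0.17 and 0.18 in all 4 regions. At an unadjusted p below 0.05 there were 3, 3, 4 and 1 members in AMY, Nac, PFC and VTA, beside 6.68%, 19.2%, 23.5% and 5.69% of all genes.

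The 1200 number series is the only one with both chronic treatments, 8 cocaine and 16 to 18 saline libraries per region, and 0 members were called in it by edgeR, with 2, 4, 2 and 2 at an unadjusted p below 0.05 in AMY, Nac, PFC and VTA, beside 6.47%, 2.68%, 2.35% and 2.05% of all genes at that threshold. After adjustment 0.0%, 0.0123%, 0.0% and 0.00624% of genes were called in AMY, Nac, PFC and VTA. In every region each cocaine title number of this series lay below each saline one. Dose and order of title number therefore go together in this series and cannot be told apart. Fos gave 0.93 ± 0.18 in Nac, 0.60 ± 0.27 in AMY, 0.83 ± 0.24 in PFC and 0.23 ± 0.15 in VTA, with an adjusted p of 0.068 in Nac. In Nac it ranged from 5.60 to 14.1 CPM in the cocaine libraries, against 2.81 to 10.1 CPM in the saline libraries, and 8 of 8 cocaine libraries lay above the saline median. There Arc, which encodes a synaptic protein whose RNA moves to dendrites, was called at 0.83 ± 0.12, as was Dusp1, a phosphatase gene that ends MAP kinase signals, at 0.43 ± 0.065. Fosb gave 0.25 ± 0.12 in Nac, -0.078 ± 0.086 in AMY, 0.15 ± 0.10 in PFC and 0.053 ± 0.18 in VTA. Fosl2 in PFC gave -0.12 ± 0.11, against 0.23 ± 0.083 over all chronic libraries. Junb gave 0.40 ± 0.11 in Nac, 0.27 ± 0.13 in AMY, 0.49 ± 0.15 in PFC and 0.17 ± 0.083 in VTA. Over all chronic libraries Junb in Nac was at -0.0094.

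**Figure D3:**
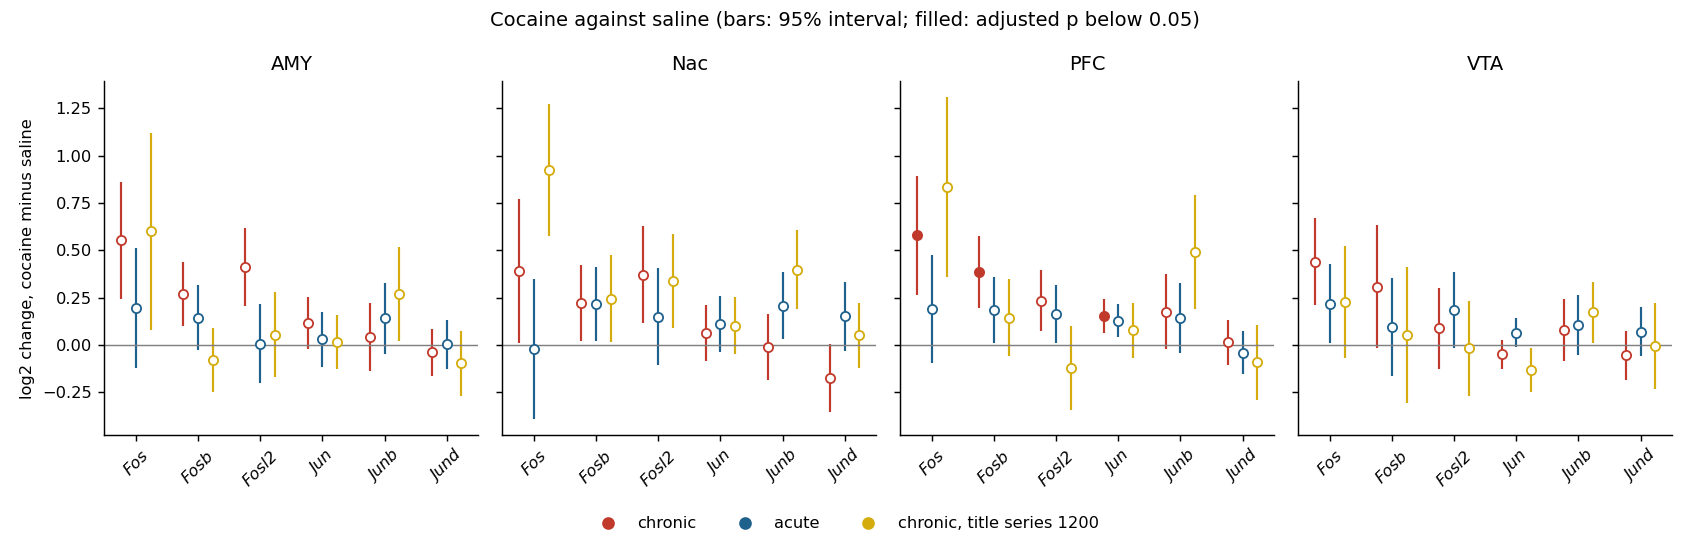
Log2 change of each member, cocaine minus saline, in the 4 regions, with 95% intervals; filled points have an adjusted p below 0.05, and the colours are the chronic schedule, the acute schedule and chronic libraries of the 1200 number series. The filled points are Fos, Fosb and Jun under the chronic schedule in PFC.

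Acute cocaine called 0 members in any region by edgeR, with 0, 2, 3 and 1 at an unadjusted p below 0.05 in AMY, Nac, PFC and VTA, beside 3.09%, 5.18%, 10.6% and 6.47% of all genes at that threshold, and 0 called by DESeq2 and by limma. After adjustment 0.0%, 0.0%, 0.0647% and 0.0467% of all genes were called. In AMY, Fos ranged from 9.94 to 52.4 CPM with a median of 24.3 in acute cocaine libraries, against 11.9 to 42.5 CPM with a median of 21.1 in acute saline libraries. In Nac it ranged from 2.91 to 23.7 CPM with a median of 12.7 in acute cocaine libraries, against 3.94 to 36.7 CPM with a median of 11.1 in acute saline libraries. The groups overlapped over most of their range in both. Fos gave -0.022 ± 0.19 in Nac, 0.20 ± 0.16 in AMY, 0.19 ± 0.15 in PFC and 0.22 ± 0.11 in VTA. Its 95% interval was -0.12 to 0.51 in AMY, -0.39 to 0.35 in Nac, -0.095 to 0.47 in PFC and 0.012 to 0.43 in VTA. The lowest adjusted p of any member was that of Jun in PFC, at 0.13 ± 0.044 (edgeR adjusted p = 0.33), with 25 of 30 cocaine libraries exceeding the median of the saline libraries.

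Both acute number series hold both doses. Within the 1000 series 0 members were called, beside 0.0%, 0.0%, 0.0192% and 0.00627% of genes in AMY, Nac, PFC and VTA, and within the 1100 series 0, beside 0.0%, 0.0%, 0.00641% and 0.0%. Fos in VTA gave -0.044 ± 0.098 within the 1000 series and 0.46 ± 0.15 within the 1100 series, and in AMY -0.0049 ± 0.20 and 0.45 ± 0.13. In PFC its values were 0.19 ± 0.11 and 0.20 ± 0.13. The difference between the cocaine effects of the schedules, chronic minus acute, was called for 0 members, and for 0.0%, 0.0%, 0.0% and 0.0% of genes. For Fos it was 0.41 ± 0.27 in Nac, 0.36 ± 0.23 in AMY, 0.39 ± 0.22 in PFC and 0.22 ± 0.16 in VTA.

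By housing, 0 members were called for acute cocaine in isolated mice and 0 in group-housed mice. Isolated mice had 0.0%, 0.0%, 0.0% and 0.554% of genes called in AMY, Nac, PFC and VTA, and group-housed mice 0.0%, 0.0174%, 0.0647% and 0.332%. At an unadjusted p below 0.05 there were 0, 0, 0 and 0 members in isolated mice, beside 2.9%, 5.49%, 2.48% and 8.59% of all genes, and 2, 2, 4 and 2 in group-housed mice, beside 10.9%, 4.76%, 10.3% and 16%. In PFC of isolated mice, Fos ranged from 26.6 to 53.5 CPM with a median of 44.3 in acute cocaine libraries, against 29.8 to 59.3 CPM with a median of 45.6 in acute saline libraries. In PFC of group-housed mice it ranged from 21.9 to 81.1 CPM with a median of 59.7 in acute cocaine libraries, against 30.8 to 68.1 CPM with a median of 41.1 in acute saline libraries. The ranges overlapped in both. Fos gave -0.19 ± 0.27 in Nac, -0.11 ± 0.23 in AMY, -0.031 ± 0.21 in PFC and 0.12 ± 0.15 in VTA in isolated mice. In group-housed mice it gave 0.15 ± 0.27 in Nac, 0.50 ± 0.23 in AMY, 0.41 ± 0.21 in PFC and 0.32 ± 0.15 in VTA.

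In PFC of isolated mice Fosb gave -0.049 ± 0.13, Fosl2 -0.033 ± 0.11 and Jun 0.058 ± 0.062. In group-housed mice Fosb gave 0.42 ± 0.13 (edgeR adjusted p = 0.239), Fosl2 0.36 ± 0.11 and Jun 0.20 ± 0.063. The difference itself, isolated minus group-housed, was called for 0 members, and for 0.0%, 0.0%, 0.0% and 1.28% of genes. For Fos it was -0.34 ± 0.38 in Nac, -0.60 ± 0.32 in AMY, -0.44 ± 0.29 in PFC and -0.20 ± 0.21 in VTA, with a 95% interval in AMY of -1.24 to 0.030. For Fosb in PFC it was -0.47 ± 0.18, and for Jun in VTA -0.21 ± 0.079 (edgeR adjusted p = 0.125).

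Under the chronic schedule, isolated mice had 0 members called, beside 0.00575%, 10.4%, 4.39% and 0.00583% of genes in AMY, Nac, PFC and VTA. Group-housed mice had 0 called, beside 0.00575%, 0.00579%, 0.0% and 0.0117%. Fos in PFC gave 0.70 ± 0.23 in isolated mice (edgeR adjusted p = 0.0558) and 0.45 ± 0.22 in group-housed mice (adjusted p = 0.779). Over the 4 regions it gave 0.23 in Nac, 0.46 in AMY, 0.70 in PFC and 0.45 in VTA in isolated mice and 0.56 in Nac, 0.65 in AMY, 0.45 in PFC and 0.43 in VTA in group-housed mice. The difference by housing was called for 0 members and 0.0%, 0.0%, 0.0% and 0.0% of genes. Between isolated and group-housed saline mice 0 members were called, beside 0.0%, 0.0%, 0.0% and 0.0% of genes, and Fos differed by -0.23 in PFC and -0.19 in VTA.

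**Figure D4:**
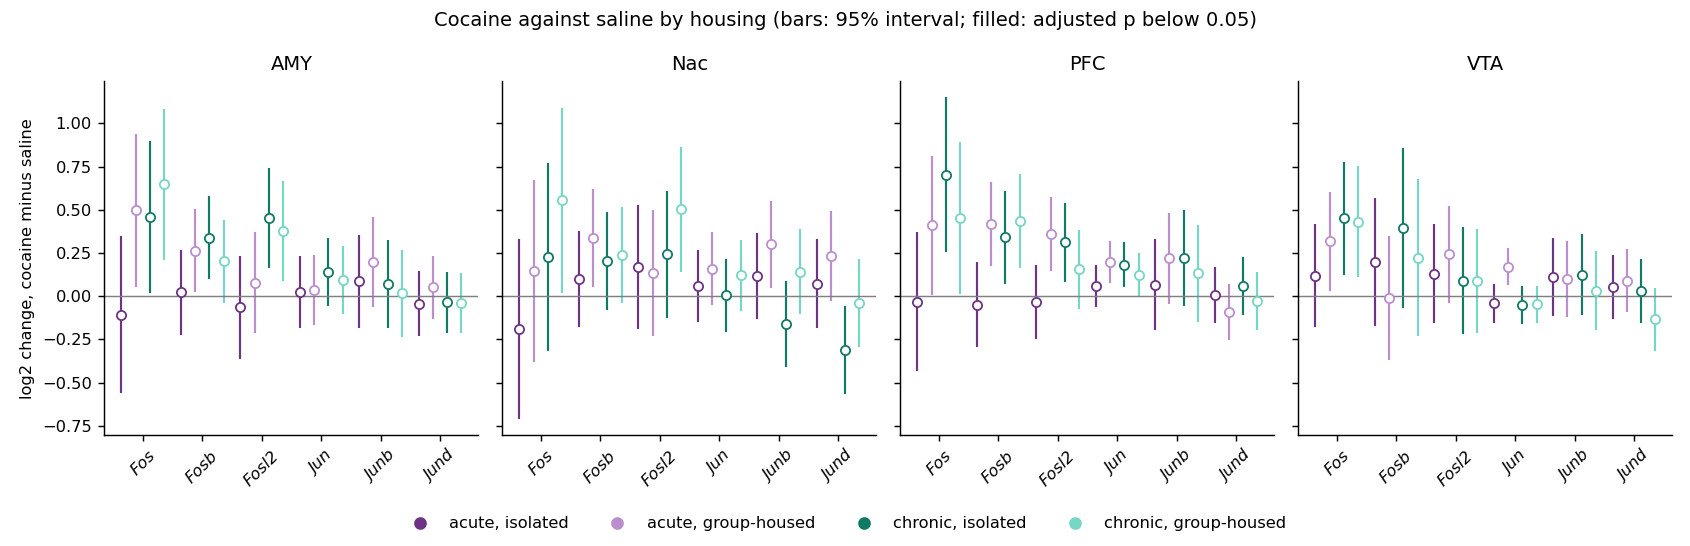
Log2 change of each member, cocaine minus saline, in isolated and group-housed mice under the acute and the chronic schedule, with 95% intervals. All points are open, that is, no adjusted p was below 0.05, and the acute values of Fos are higher in group-housed mice in all 4 regions without a called difference.

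By sex, 0 members were called between female and male saline mice, beside 0.144%, 0.104%, 0.1% and 0.0992% of genes in AMY, Nac, PFC and VTA. The cocaine effect in females minus that in males was called for 0 members under the acute schedule, beside 0.0%, 0.0%, 0.0% and 0.0% of genes. Under the chronic schedule it was called for 0 members, beside 0.0%, 0.029%, 0.0% and 0.0% of genes. Between number series within 1 treatment, acute saline libraries of 1100 against 1000 had 0.0127%, 0.0%, 0.0% and 4.83% of genes called, and among the members Junb in VTA, at -0.29 ± 0.088 (edgeR adjusted p = 0.0498). Acute cocaine libraries of 1100 against 1000 had 0 members called, beside 0.0%, 0.0%, 0.521% and 0.0% of genes. Chronic saline libraries of 500 against 1200 had 0, beside 7.98%, 0.056%, 13.1% and 0.0127%, with Fosl2 in AMY at -0.31 ± 0.11 (edgeR adjusted p = 0.0679). Chronic cocaine libraries of 1000 against 1200 had 0, beside 0.0122%, 0.0%, 0.0% and 0.0%, with Fos in Nac at -0.72 ± 0.25.

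Within groups, most pairs of Fos, Fosb, Fosl2 and Junb were positively correlated. These correlations are of log2 CPM, with 1 added to each CPM, minus the group mean over the libraries of a region. The added 1 narrows the spread of low values, such as Fosb in chronic VTA libraries, at 0.323 to 1.87 CPM. The correlations are given as descriptions, since genes of a library share its depth and dissection. Fos and Junb correlated at 0.52 in Nac, 0.64 in AMY, 0.86 in PFC and 0.41 in VTA. Fosb and Fosl2 correlated at 0.62, 0.73, 0.70 and 0.64 in AMY, Nac, PFC and VTA. Fos and Fosl2 correlated at 0.65 in VTA but at 0.14 in PFC, where Fosl2 and Junb were at 0.031. Fos and Jund lay between -0.067 and 0.25. Over all genes with a mean of at least 1 CPM, the gene most like Fos was Egr1 in AMY at 0.86, Btg2, an antiproliferative gene, in Nac at 0.76, Junb in PFC at 0.86 and Egr1 in VTA at 0.72. Arc followed in AMY at 0.83 and in Nac at 0.74.

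The gene most like Fosl2 was Nr4a3 in all 4 regions, at 0.92 in Nac, 0.71 in AMY, 0.79 in PFC and 0.77 in VTA. Fosb was most like Egr3 in AMY at 0.68, Egr1 in Nac at 0.80 and in PFC at 0.83, and Ngef, a neuronal exchange factor gene, in VTA at 0.79. Junb was most like Egr4 in AMY at 0.78 and in Nac at 0.78, and Cx3cl1, the fractalkine gene, in VTA at 0.72. Jun was most like Lhx2 in AMY at 0.80, Bok in Nac at 0.78, Pnrc1 in PFC at 0.57 and Hspa1b, a heat shock gene, in VTA at 0.57. Jund was most like Pcsk1n, which encodes the neuroendocrine protein proSAAS, in AMY at 0.88, PFC at 0.93 and VTA at 0.93. In Nac it was most like Scand1 at 0.94, a value that includes the library at 306.4 CPM.

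Deviations of Fos were shared between regions. Libraries of 2 regions with the same title number, 99 to 106 pairs, were compared after the group mean was subtracted. Fos correlated at 0.56 between AMY and Nac, 0.73 between AMY and PFC, 0.54 between AMY and VTA, 0.63 between Nac and PFC, 0.46 between Nac and VTA, and 0.48 between PFC and VTA (Pearson). Spearman's rho lay between 0.46 and 0.70. The 2-sided permutation p of Pearson's r lay between 1e-05, the smallest that 100000 permutations can give, and 3e-05, and that of rho between 1e-05 and 2e-05. Adjusted over the 36 relations of the family by the Benjamini-Hochberg method, these lay between 3.6e-05 and 9e-05 for Pearson's r and between 4.5e-05 and 8e-05 for rho. Leaving out the 2 most extreme numbers gave 0.45 to 0.70. Within the number series Fos correlated at 0.41 to 0.66 in 1000, 0.46 to 0.65 in 1100 and 0.53 to 0.80 in 1200. All genes had a median correlation between 0.004 and 0.13, and 0.0712% to 0.463% of genes exceeded Fos.

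The other members shared this to different degrees, among 36 relations computed for the family. Fosl2 correlated between 0.32 and 0.52 over the 6 pairs of regions, and 0.47% to 1.45% of genes exceeded it. In the 1200 series alone its values ran from -0.11 to 0.59. Junb correlated at 0.61 between AMY and PFC and at 0.51 between Nac and PFC, but at 0.069 between Nac and VTA. Fosb lay between 0.091 and 0.44, with its highest value between Nac and PFC. Jun lay between -0.16 and 0.22 and Jund between -0.19 and 0.070. The labels do not say what libraries with 1 title number share, and what they share was not tested.

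**Figure D5:**
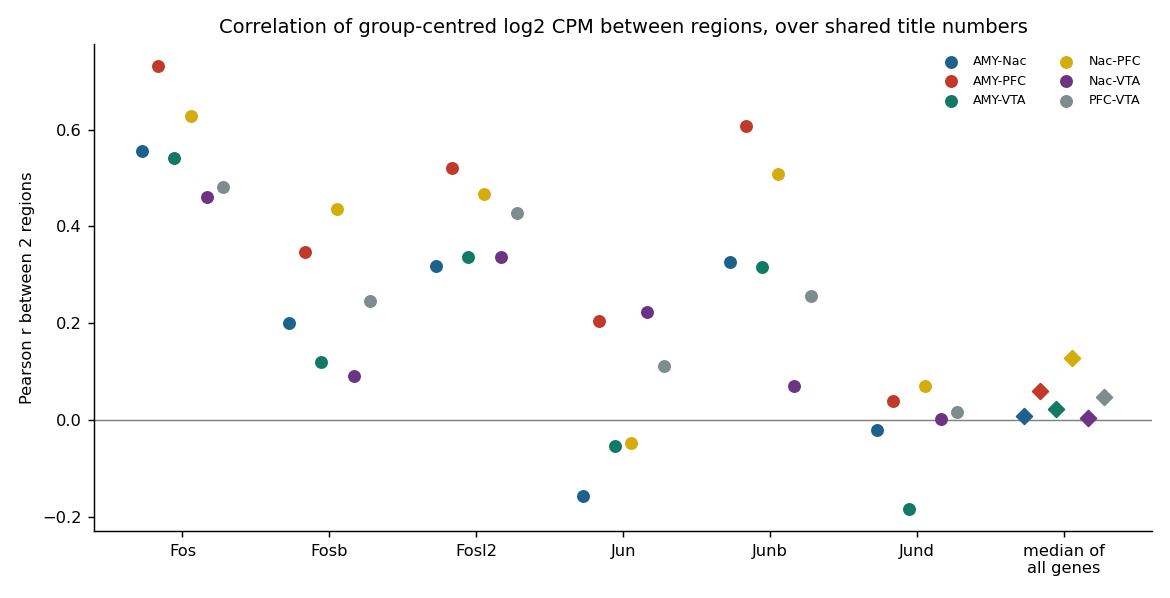
Pearson correlation of each member between 2 regions, over libraries with the same title number. Values are log2 CPM, computed as for the correlations within groups, minus the group mean. The 6 pairs of regions are shown for each member and diamonds at the right give the median of all genes for each pair. Fos lies between 0.46 and 0.73 in all 6 pairs and Jund between -0.19 and 0.070.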

How the data were processed

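Libraries were made with a stranded poly(A) kit from 300 ng of RNA and read as 50-base single reads, each pool being run 3 times, per the labels' protocols. STAR, featureCounts, limma and GRCm38 are named in the submitters' processing notes, without a strand setting. The authors deposited raw counts per Ensembl gene. Symbols and exon lengths came from GENCODE M21, and 884 genes with 0.11% of counts had no symbol. The members and gene lists were chosen with earlier results of these data known. Tests used edgeR 4.0.16 in R 4.3.3 (TMM, filterByExpr, robust quasi-likelihood fit, 2-sided), with 16 cell means per region and Benjamini-Hochberg adjustment over all genes tested. Alternatives used DESeq2 1.42.0, limma 3.58.1, other scalings, no filter, fewer libraries and further terms. The fit was tested on simulated data. Libraries were held to stand apart where a robust z on the first 4 principal components of 3000 variable genes exceeded 5 or opposite-sex transcripts reached 5%. In the median library 1 CPM is 21.7 counts. Every member is named; of each gene list up to 4 called genes of lowest p, and the 5 genes most correlated with a member, may be named.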

Additional observations from a re-analysis of the deposited data

Results flagged for a closer look

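Values of the 6 members were examined for a library far from the others in the 6 sets of 1 treatment, region and number series that hold 8 to 10 libraries, which makes 36 sets of values. All are chronic: cocaine libraries of the 1200 series in each region, and saline libraries of the 500 series in Nac and PFC. The other sets, acute ones included, are larger and were not examined. Chance marks about 5% of sets. In Nac, Jund read 306.4 CPM in 1 isolated female given chronic saline (500 series), and the next of the 10 libraries read 81.95 CPM. In Nac, Jun read 35.36 CPM in 1 isolated male given chronic cocaine (1200 series), and the next of the 8 libraries read 26.19 CPM.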

How the results depend on the processing

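Of the values of single members under alternative settings, 1445 kept their direction and side of the threshold, 30 lost the call, 6 gained one and 61 changed sign. None of those that changed sign was called in the fit of all libraries or under the alternative, and their log2 changes in the fit of all libraries were at most 0.33 in size. With DESeq2 these were 0.0037 for Jun in PFC (chronic cocaine by sex), -0.00050 for Jund in AMY (chronic cocaine by housing), 0.0048 for Junb in Nac (schedule with saline), -0.0039 for Fos in AMY (isolated against group-housed saline mice). With the choroid plexus marker term these were -0.0027 for Fosl2 in AMY (acute cocaine), 0.0032 for Junb in Nac (schedule with saline). With library totals alone it was -0.0014 for Jund in VTA (schedule with cocaine). With limma these were -0.0069 for Jund in AMY and 0.062 for Fos in Nac (acute cocaine), -0.018 for Fosl2 in Nac (acute cocaine by housing), 0.00050 for Jun in VTA (chronic cocaine by housing), 0.040 for Fos in Nac (female against male saline mice), -0.0037 for Jun in AMY (isolated against group-housed saline mice). Over the fits without 1 library of the smallest group these were -0.029 to 0.027 for Fosl2 in AMY, -0.014 to 0.045 for Jun in AMY and -0.018 to 0.022 for Jund in AMY (acute cocaine). With number series as a term these were -0.094 for Fosb in AMY, 0.35 for Junb in Nac, 0.034 for Jund in Nac, -0.12 for Fosl2 in PFC, -0.074 for Jund in PFC, -0.0097 for Fosl2 in VTA and 0.036 for Jund in VTA (chronic cocaine), -0.011 for Fosl2 in VTA (chronic cocaine by housing), 0.053 for Jund in PFC (schedule with cocaine), 0.089 for Jund in PFC and 0.092 for Jun in VTA (schedule with saline), -0.019 for Fos in AMY (isolated against group-housed saline mice). With the size factors of DESeq2 it was 0.0042 for Junb in Nac (schedule with saline). Within the 1000 series these were -0.0049 for Fos in AMY, -0.18 for Fosl2 in AMY, -0.093 for Jun in AMY, -0.030 for Junb in AMY, -0.065 for Jund in AMY, 0.0069 for Fos in Nac, 0.028 for Jund in PFC, -0.044 for Fos in VTA, -0.33 for Fosb in VTA and -0.23 for Junb in VTA (acute cocaine). Within the 1100 series these were -0.010 for Fosb in Nac and -0.11 for Fosl2 in Nac (acute cocaine). Within the 1200 series these were -0.078 for Fosb in AMY, 0.40 for Junb in Nac, 0.052 for Jund in Nac, -0.12 for Fosl2 in PFC, -0.090 for Jund in PFC and -0.018 for Fosl2 in VTA (chronic cocaine). Without the libraries that stand apart these were -0.012 for Jund in AMY (acute cocaine), 0.0079 for Jun in AMY and -0.0020 for Jund in PFC (acute cocaine by housing), 0.058 for Junb in Nac and 0.0075 for Jund in Nac (chronic cocaine), 0.035 for Jund in Nac (chronic cocaine by sex), 0.075 for Jund in Nac (chronic cocaine by housing), -0.090 for Jund in Nac (female against male saline mice), 0 for Fos in AMY, -0.010 for Fos in Nac, -0.025 for Fosl2 in Nac and 0.0082 for Jund in PFC (isolated against group-housed saline mice). Counts of called members moved by over 1.5 times in 9 cases. For chronic cocaine in AMY, DESeq2 called 1 member and libraries of 1 schedule alone 1, Fosl2 both times (adjusted p = 0.0481 by DESeq2 and 0.0413 by edgeR), against 0 in the fit of all libraries by edgeR. For chronic cocaine in PFC, libraries of 1 schedule alone called 1 member, number series as a term 0, the 1200 series 0 and the striatal marker term 1, against 3. For chronic against acute saline, number series as a term called 2 in AMY, 1 in Nac and 3 in PFC, against 5 in each. The causes were not tested. Leaving out each library of the smallest group, isolated males of AMY given acute cocaine, left 0 members called for acute cocaine. No paired analysis was possible because within a region each title number belongs to 1 library, so the groups compared share no number. Marker terms and other scalings of the schedule comparisons were chosen after seeing the data. Fosb in VTA rests on few counts.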
